A study of Mus musculus with 40 samples.

Results

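The 7 genes described here mark B lymphocytes: Ms4a1, Cd79a, Cd79b, Pax5, Cd22, Cr2 and Blk. They were chosen by name, and each has 1 row among the 37310 genes of the mouse expression table, in which 15630 genes passed the filter on low values, all 7 of these included. The levels come from RNA sequencing of lungs of female SWR/J and A/J mice in a model of premalignant squamous lesions, in which N-nitroso-tris-chloroethylurea (NTCU) is applied to the skin and the airway epithelium passes through dysplasia to squamous cell carcinoma (SCC). Of 40 samples, the 25 with a passed quality label were used: 13 taken by laser capture microdissection (LCM) and 12 from whole lung sections, 17 from SWR/J and 8 from A/J mice. The 7 normal samples (4 SWR/J and 3 A/J, 3 LCM and 4 whole lung) had a total NTCU dose of 0, and the label descriptions give acetone vehicle. The 5 mild dysplasia samples were all from SWR/J mice given 15 µmol in total (3 LCM and 2 whole lung). The 13 high-grade samples (7 LCM and 6 whole lung) joined 9 of moderate to severe dysplasia (3 A/J after 14 µmol, and 6 SWR/J after 25 or 30 µmol), 2 of severe dysplasia (SWR/J, 50 µmol), 1 carcinoma in situ and 1 SCC tumor (both A/J, 20 µmol). No dose was shared between normal, mild, severe and moderate to severe samples, so grade and dose could not be told apart. Mild and severe dysplasia came from SWR/J only and the carcinoma in situ and SCC tumor from A/J only, while normal samples came from both strains. The labels do not say which samples share an animal, so p-values measure the spread between samples. For normal replicate 10 the description names mild dysplasia, and for mild dysplasia replicate 5 it names normal histology, against their grade labels, which were kept. The age at sampling is not given in the sources used here.

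B cells recognise antigen through a surface immunoglobulin whose signal is carried by the paired chains CD79A and CD79B. PAX5 is the transcription factor that holds cells in the B lineage, and CD20 (Ms4a1), CD22 and complement receptor 2 (Cr2) are surface proteins of mature B cells. In lung tissue, B cells are found scattered, in lymphoid follicles along the airways and in neighbouring lymph nodes.

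On NCBIM37, the assembly also called mm9, Cd79a lay at chr7:25682400-25687216 on the plus strand. Cd22 lay on the same chromosome, at chr7:31650421-31665361 on the minus strand. The other members lay on chromosomes 1 (Cr2), 4 (Pax5), 11 (Cd79b), 14 (Blk) and 19 (Ms4a1), each on the minus strand. All are protein-coding genes.

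The 250 bases before the transcription start were read for the 4 members that the RefSeq promoter table holds (Cr2, Pax5, Cd79a and Cd22, build GRCm38.p6). Ms4a1, Cd79b and Blk were not in that table. For this, 3 patterns were searched on both strands: the octamer ATGCAAAT, the EBF core CCCNNGGG and the ETS core GGAAGT, in that order held by 1.60%, 11.8% and 19.7% of 32851 promoters. The 3 promoters with a match are shown 5′ to 3′ along the gene, with the match in capitals. Cd79a (chr7:24897247-24897496, plus strand) had the ETS core 54 bases before the start, Cr2 (chr1:195176720-195176969, minus strand) had its reverse complement 130 bases before the start, and Cd22 (chr7:30879029-30879278, minus strand) had the EBF core 48 bases before the start.
Cd79a: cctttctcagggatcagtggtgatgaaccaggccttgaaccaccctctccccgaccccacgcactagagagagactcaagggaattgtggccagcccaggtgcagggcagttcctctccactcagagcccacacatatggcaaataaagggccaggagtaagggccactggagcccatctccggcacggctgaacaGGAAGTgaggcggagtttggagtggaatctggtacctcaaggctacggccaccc
Cd22: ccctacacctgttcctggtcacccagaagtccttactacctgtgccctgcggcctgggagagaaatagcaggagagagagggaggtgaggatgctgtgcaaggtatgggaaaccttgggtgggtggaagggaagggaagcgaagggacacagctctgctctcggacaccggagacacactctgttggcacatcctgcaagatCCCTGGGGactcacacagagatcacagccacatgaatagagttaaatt
Cr2: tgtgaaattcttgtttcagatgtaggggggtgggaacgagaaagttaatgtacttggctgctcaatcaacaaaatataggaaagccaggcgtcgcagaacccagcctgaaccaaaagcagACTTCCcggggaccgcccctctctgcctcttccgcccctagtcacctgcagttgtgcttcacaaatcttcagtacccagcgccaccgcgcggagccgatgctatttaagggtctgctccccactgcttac
None of these letters were found in the Pax5 window, and the octamer was found in none of the 4. A match describes the sequence and is not evidence of binding.

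Levels are given as TMM log2 CPM, the log2 of a gene's share of the library (CPM) after scaling by the trimmed mean of M-values, with a prior count of 2. The expected counts of the 25 samples summed to 2667387 in the shallowest and 16534728 in the deepest sample (median 9075416). Per kilobase of exon, the median level over the 25 samples was highest for the receptor chains, at 25.5 CPM per kb for Cd79b and 15.0 for Cd79a. It was 4.94 for Ms4a1, 3.01 for Blk (a Src family kinase of the B cell receptor pathway), 2.54 for Cd22, 1.29 for Pax5 and 0.805 for Cr2. No step between neighbours in this order exceeded the SD across samples on the log2 scale, which was from 1.89 (Cd79b) to 2.78 (Cr2). Counts reached 4379 for Cd79a, but Pax5 had 0 counts in 1 LCM sample of mild dysplasia, and Cr2 had 0 in the SCC tumor, the carcinoma in situ and 1 LCM sample of severe dysplasia. For counting error alone, a count of 0 (limit of 3 counts) allows up to 0.951 CPM of Pax5 in the first of these, and up to 0.213, 0.318 and 1.21 CPM of Cr2 in the others.

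Samples high for one of the 7 genes were mostly high for the others, with Blk the least alike in LCM samples. The mean of the 7 in log2 CPM was 7.44 in normal replicate 8, 7.26 in severe dysplasia replicate 4 and 6.49 in mild dysplasia replicate 3, each a whole lung sample of SWR/J. The highest 3 samples thus came from 3 different grades. The lowest means were -0.24 in the SCC tumor (LCM) and 0.35 in the carcinoma in situ (whole lung), both from A/J mice. Across the 25 samples, Pearson's r between pairs of members ranged from 0.770 to 0.979, with a median of 0.895. The points share library depth and composition, so these correlations are a description. The least alike pair was Pax5 and Blk. Within the 13 LCM samples the median r was 0.779, and within the 12 whole lung samples it was 0.930.

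**Figure D1:**
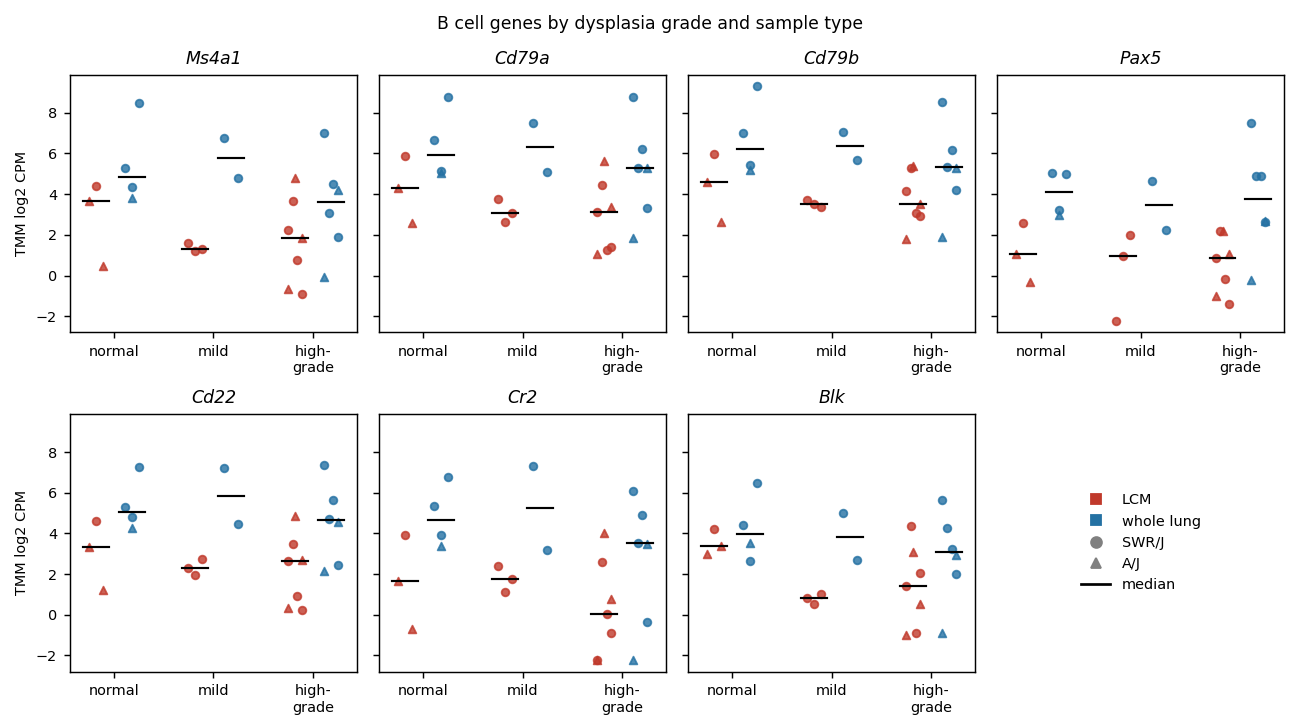
TMM log2 CPM of each B cell gene (y axis) in the 25 samples by grade (x axis); red points are LCM and blue points whole lung samples, circles SWR/J and triangles A/J, and lines are medians. Whole lung medians lie above LCM medians in each grade for every gene, and the points of the grades overlap.

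The first comparison asked how the level of B cell RNA in microdissected tissue compared with that in whole lung sections. In all, 6 of the 7 genes were lower in LCM samples at an adjusted p below 0.05 (edgeR's quasi-likelihood test with grade, strain and the transcript integrity number, TIN, in the model), where 8.93% of all 15630 genes tested were called lower. In bulk samples, fewer cells of a type and less RNA per cell cannot be told apart. Pax5 had the widest separation. In the 13 LCM samples its level ran from -2.22 to 2.57 (median 0.98), and the 12 whole lung samples ran from -0.23 to 7.48 (median 3.93). All 13 LCM samples lay below the whole lung median, and 10 of 12 whole lung samples lay above the highest LCM sample. The fitted log2 fold change was -3.07 ± 0.73 (SE, adjusted p = 0.00946).

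Of the receptor chains, Cd79a ran from 1.05 to 5.85 in LCM samples (median 3.12) and from 1.85 to 8.78 in whole lung samples (median 5.29). Its log2 fold change was -2.34 ± 0.74 (SE, edgeR adjusted p = 0.0380). Cd79b ran from 1.77 to 5.97 in LCM (median 3.52) and from 1.89 to 9.30 in whole lung (median 5.55), with a log2 fold change of -1.98 ± 0.59 (SE, edgeR adjusted p = 0.0295). For both chains the ranges overlapped, and 5 of 12 whole lung samples lay above the highest LCM sample.

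Among the surface proteins, Cd22, an inhibitory receptor that binds sialic acid, ran from 0.24 to 4.87 in LCM (median 2.65) and from 2.16 to 7.34 in whole lung (median 4.75). The difference was -2.40 ± 0.64 on the log2 scale (SE, edgeR adjusted p = 0.0167). Ms4a1 had medians of 1.62 in LCM and 4.42 in whole lung, with a log2 fold change of -2.46 ± 0.81 (SE, edgeR adjusted p = 0.0451). Cr2, the complement receptor of mature B cells and follicular dendritic cells, had medians of 1.10 and 3.75, with a log2 fold change of -2.64 ± 0.87 (SE, edgeR adjusted p = 0.0458). The ranges of these 3 genes overlapped between sample types. Blk had medians of 1.40 and 3.39, and its log2 fold change of -1.48 ± 0.58 did not pass the test (SE, edgeR adjusted p = 0.0902).

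**Figure D2:**
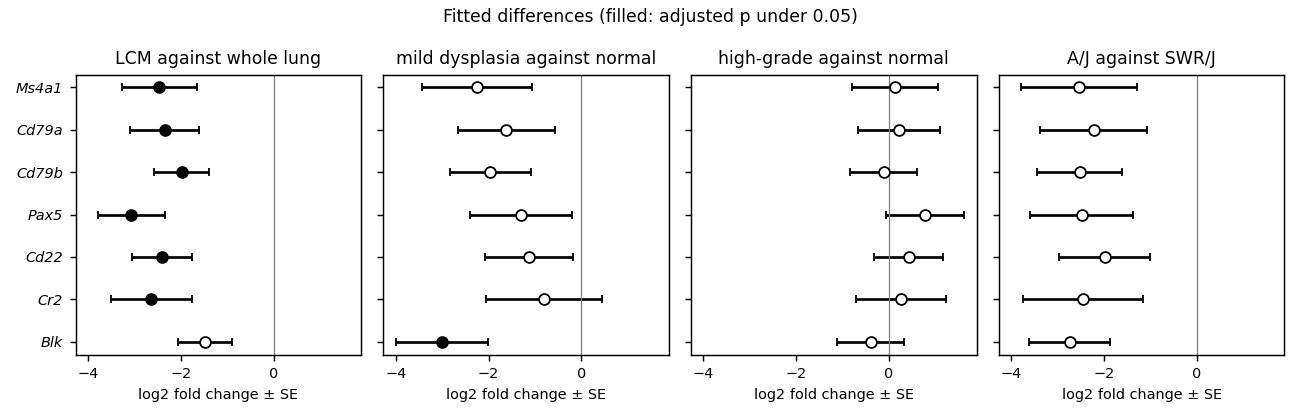
Fitted log2 fold changes (x axis, with SE bars) of the 7 genes (y axis) in 4 comparisons; filled points have an edgeR adjusted p under 0.05. Filled points are seen for 6 genes in LCM against whole lung and for Blk in mild dysplasia against normal.

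These calls differed in how they depended on single samples. Pax5 and Cd22 kept an adjusted p under 0.05 with each of the 25 samples left out in turn (at most 0.0270 and 0.0454), whereas Cd79b kept it in 20, Cd79a in 12, Ms4a1 in 7 and Cr2 in 6. The number of genes called was 2 without moderate to severe dysplasia replicate 5, 7 or 14, mild dysplasia replicate 3 or severe dysplasia replicate 4. It was 3 without normal replicate 3, 9 or 10, moderate to severe dysplasia replicate 4 or 9, severe dysplasia replicate 2 or mild dysplasia replicate 5. Without severe dysplasia replicate 4, the log2 fold change was nearest 0 for each gene, from -2.40 for Pax5 to -1.003 for Blk. With all 40 samples, none of the 7 genes was called (-1.96 for Pax5 to -0.16 for Ms4a1), and with no gene filter 2 were. DESeq2 called all 7 lower, where it called 11.3% of all genes lower.

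The difference was seen within SWR/J, where the 8 LCM and 9 whole lung samples gave log2 fold changes from -3.63 (Pax5) to -1.73 (Blk) and 3 genes passed the test (Pax5, Cd22 and Cr2). Within A/J the fit of 5 LCM and 3 whole lung samples gave log2 fold changes from 1.23 (Pax5) to 4.60 (Cr2), none past the test (edgeR adjusted p from 0.771 to 0.880). The unadjusted A/J medians were nonetheless lower in LCM for 6 of the genes, for example 1.05 against 2.68 for Pax5, and for Blk they were 3.003 in LCM and 2.94 in whole lung. The difference between the strains in this contrast was not tested.

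**Figure D3:**
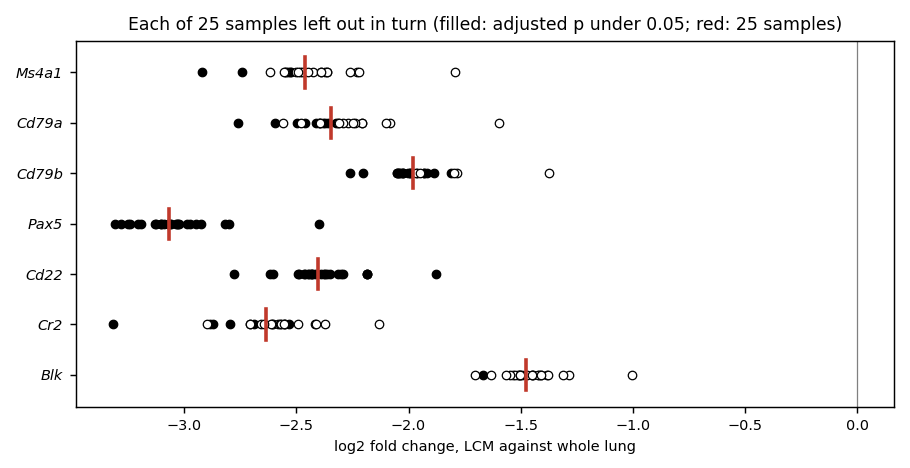
Log2 fold change of LCM against whole lung (x axis) for each gene (y axis) with each of the 25 samples left out in turn; filled points have an edgeR adjusted p under 0.05 and red bars mark the value with all 25 samples. Every point lies below 0, and Pax5 and Cd22 have filled points only.

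Other genes of B cells were compared by lists. Of 24 tested genes of B cell receptor signalling and the B cell surface, 10 were lower in LCM and none higher, with a median log2 fold change of -1.21 beside -0.03 over all genes tested. They included the Fc receptor-like genes Fcrla (-2.71 ± 0.71 SE, edgeR adjusted p = 0.0147) and Fcrl1 (-2.24 ± 0.69, adjusted p = 0.0328), and Btk, the kinase that relays the receptor's signal (-1.81 ± 0.38, adjusted p = 0.00495). Of 12 transcription factors of the lineage, 3 were lower in LCM: Bach2 (-1.23), Irf8 (-1.12) and Foxo1 (-0.49). Of 17 genes of homing, survival and follicles, 6 were lower, led by Tnfrsf13c, the receptor for the survival factor BAFF (-2.89 ± 0.83, edgeR adjusted p = 0.0236), Fcer2a (-2.59) and Cxcr5, the chemokine receptor that guides B cells to follicles (-1.79 ± 0.52, adjusted p = 0.0260). Cxcl13, the ligand of CXCR5, did not pass (-1.02 ± 0.62, adjusted p = 0.277).

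Immunoglobulin constant region genes encode the antibody products of B cells and plasma cells. Of the 6 tested, 5 had negative fitted values, and the median log2 fold change was -1.22. By edgeR 1 was lower in LCM, Ighg1 (-4.75 ± 1.40 SE, edgeR adjusted p = 0.0270), and DESeq2 called 2. The positive value was that of Ighm (IgM heavy chain), 0.19 ± 0.85 (edgeR adjusted p = 0.905). Its medians were 8.54 in LCM and 8.19 in whole lung. Igkc had medians of 9.29 and 9.39. In mild dysplasia replicates 1 and 2, both LCM, Ighm reached 2976 and 2101 CPM while the mean of the B cell genes was 1.78 and 1.71 log2 CPM. In the whole lung sample of severe dysplasia, Igkc reached 20764 CPM. Of 7 plasma cell genes, 0 were called by edgeR or DESeq2, and 0 had an unadjusted p under 0.05.

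**Figure D4:**
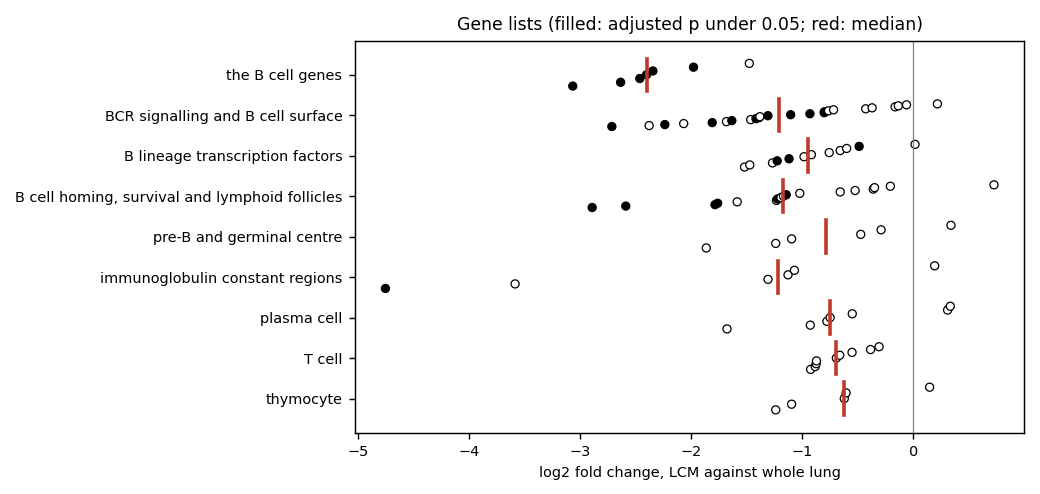
Log2 fold change of LCM against whole lung (x axis) of every tested gene in 9 lists (y axis); filled points have an edgeR adjusted p under 0.05 and red bars are list medians. The median of the 7 B cell genes, -2.40, lies below the medians of the other lists shown, from -1.22 to -0.62. The alveolar type 2 (median -1.96) and endothelial (-1.86) lists are not shown.

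Markers of other cells also differed between the sample types. All 4 endothelial markers and 2 of 6 markers of alveolar type 2 cells were lower in LCM. The median log2 fold changes of these lists were -1.86 and -1.96, beside -2.40 for the 7 B cell genes. The endothelial markers summed to 64.1 to 985 CPM in LCM (median 126) and 138 to 1160 CPM in whole lung (median 699). For the alveolar list the sums were 399.9 to 10385 CPM (median 1592) against 169 to 31969 CPM (median 9881). Of 6 macrophage markers 2 were lower in LCM, the scavenger receptor Marco (-4.52 ± 0.89 SE, edgeR adjusted p = 0.00344) and Chil3 (-3.16 ± 0.82, adjusted p = 0.0144), and the fitted values of all 6 were negative. The macrophage markers summed to 120.5 to 281 CPM in LCM and 93.2 to 1771 CPM in whole lung. Of 4 markers of plasmacytoid dendritic cells 1 was lower, Tcf4 (-0.57 ± 0.14, edgeR adjusted p = 0.0101), and these summed to 51.3 to 436 CPM in LCM and 99.2 to 495 CPM in whole lung. One of 3 club cell markers and 1 of 3 ciliated cell markers were higher. None of the 9 T cell genes was called by edgeR or DESeq2 in this comparison, and 0 had an unadjusted p under 0.05. The fitted values of all 9 were nonetheless negative, from -0.93 to -0.31. The T cell markers summed to 13.2 to 3656 CPM in LCM (median 70.6) and 20.8 to 4534 CPM in whole lung (median 282). Rag1, a gene of thymocytes, was at or above 10 CPM in 5 of 13 LCM and 4 of 12 whole lung samples. Without these 9 samples the B cell gene differences ran from -3.69 (Cr2) to -2.23 (Blk), larger than with them, and none passed the test in the remaining 16 (edgeR adjusted p from 0.110 to 0.206). The part of the endothelial, alveolar, macrophage, dendritic and T cells in the B cell gene result was not tested.

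The next question was whether B cell genes changed with the grade of the lesion. In mild dysplasia against normal, 1 of the 7 genes was called lower, against 7.24% of all genes tested. Blk was at 0.53, 0.85 and 1.04 in the LCM samples and at 2.69 and 4.98 in the whole lung samples of mild dysplasia. In the 7 normal samples it ran from 2.65 to 6.47 with a median of 3.54. The 3 mild LCM samples lay below every normal sample, and the 2 whole lung samples lay within the normal range. The fitted log2 fold change was -3.01 ± 0.98 (SE, edgeR adjusted p = 0.0484). The other genes gave log2 fold changes from -2.25 (Ms4a1) to -0.81 (Cr2) with edgeR adjusted p from 0.126 to 0.680.

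The Blk call was near the threshold. It was kept in 8 of 25 fits that left out 1 sample, with log2 fold changes from -3.33 to -2.78 and edgeR adjusted p from 0.0300 to 0.106. With the 2 conflicting histologies taken from the descriptions it was -0.95 (adjusted p = 0.624), within LCM samples -3.23 (adjusted p = 0.416) and within whole lung samples -3.02 (adjusted p = 0.300).

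Genes of T lymphocytes and thymocytes, the T cell precursors of the thymus, moved with this result. All 9 T cell markers and 4 of 5 tested thymocyte markers were called lower in mild dysplasia. In several other fits no gene at all was called in this comparison, so these calls were lost too. Those fits took the conflicting histologies from the descriptions, used LCM or whole lung samples alone, or left out strain and sample type. The T cell markers summed to 27.9 to 232 CPM in mild dysplasia and 189 to 4534 CPM in normal samples, and the thymocyte markers to 17.9 to 61.7 CPM and 63.3 to 3481 CPM. Each T cell marker was above 0 in every sample, whereas Ptcra, Rag1 and Dntt were at 0 in some. Rag1, the recombinase of developing lymphocytes, was at or above 10 CPM in 5 of 7 normal samples, all 3 LCM normal samples among them, in 0 of 5 mild samples and in 4 of 13 high-grade samples. Without the 9 samples at or above that level, the Blk difference was -2.32 (edgeR adjusted p = 0.329). The part of these cells in the Blk result was not tested. Blk exceeded Ms4a1 by the most in normal replicate 10 (2.93 on the log2 scale), where Rag1 was at 35.9 CPM. It did so by 2.93 also in moderate to severe dysplasia replicate 7, where Rag1 was at 0. In that replicate 7 Ms4a1 had 2 expected counts and Blk 24, so the difference there depends on the prior count. Next in order were moderate to severe dysplasia replicates 10 (1.21) and 4 (0.69), with Rag1 at 328 and 521 CPM. In moderate to severe dysplasia replicate 8, with Rag1 at 165 CPM, Blk minus Ms4a1 was -1.72. The 3 samples with the highest mean of the B cell genes had little Rag1. It was at 2.14 CPM in normal replicate 8, 0 in severe dysplasia replicate 4 and 0.112 in mild dysplasia replicate 3. Normal replicate 6, next by that mean (5.58 log2 CPM), had the highest Rag1 of any sample used, at 1038 CPM. In the samples with the lowest means, the SCC tumor and the carcinoma in situ, Rag1 was at 0. How Rag1 varied with the B cell genes was not tested.

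Some genes of the B cell lists were also called lower in mild dysplasia, where 7.24% of all genes tested were. Of 24 receptor signalling genes 2 were lower, Prkcb (-3.66 ± 1.02 SE, edgeR adjusted p = 0.0296) and Pik3cd (-2.07 ± 0.64). Of 12 transcription factors 1 was lower, Ikzf1 (-3.34 ± 1.03). The counts of these 2 lists were near the share over all genes. Of 17 homing and survival genes, 4 were lower, among them Ccr7 (-3.40), Ltb (-3.12) and Cd40 (-1.79), and 1 was higher, Ltbr, a receptor of stromal cells (1.28 ± 0.34). Ccr7, Ltb, Ikzf1 and Prkcb are also expressed by T cells. Of 6 tested genes of pre-B and germinal centre cells, Rag1, Rag2 and Dntt were lower, genes that thymocytes share.

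In high-grade lesions against normal, 0 of the 7 genes were called by edgeR, 0 by DESeq2 and 0 had an unadjusted p under 0.05, beside 0.0192% of all genes called. Ms4a1 ran from -0.90 to 6.99 in the 13 high-grade samples (median 2.22) and from 0.47 to 8.50 in the 7 normal samples (median 4.36). Cd79a ran from 1.05 to 8.76 (median 3.38) and from 2.57 to 8.78 (median 5.12). The grades overlapped over nearly their whole ranges. Although the medians of all 7 genes were lower in high-grade samples, the fitted log2 fold changes, which take account of strain, sample type and TIN, ran from -0.40 ± 0.72 (SE) for Blk to 0.77 ± 0.84 for Pax5, with edgeR adjusted p from 0.775 to 0.972. The sign of each of the 7 values was reversed under at least 1 other choice of covariates or samples.

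In whole lung samples alone, the median of Pax5 was 4.10 in 4 normal and 3.78 in 6 high-grade samples, and in LCM samples alone 1.05 in 3 normal and 0.87 in 7 high-grade samples. The interaction of high-grade histology with sample type, fitted in 20 samples, gave 0 of 7 genes called by edgeR, 0 by DESeq2 and 0 with an unadjusted p under 0.05, where 0.00% of all genes were called. Its log2 values ran from -1.32 (Pax5) to 0.38 (Cr2).

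Strain was the third factor of the design. All 7 genes had lower fitted levels in A/J than in SWR/J, from -2.74 ± 0.87 (SE, Blk) to -1.99 ± 0.99 (Cd22) on the log2 scale. None passed edgeR's test (adjusted p from 0.122 to 0.327), 3 had an unadjusted p under 0.05, and DESeq2 called 2, Cd79b (adjusted p = 0.0279) and Blk (adjusted p = 0.0253). Of all genes, edgeR called 0.992% and DESeq2 6.15% in this comparison. Cd79b ran from 1.77 to 5.37 in the 8 A/J samples (median 4.04) and from 2.93 to 9.30 in the 17 SWR/J samples (median 5.35). Blk had medians of 2.97 in A/J and 2.69 in SWR/J, so its fitted and unadjusted differences had opposite signs. The A/J samples included the carcinoma in situ and the SCC tumor, which had the lowest means of the B cell genes. TIN, which is in this fit, also differed by strain. It ran from 53.7 to 69.6 in A/J (median 61.1) and from 21.7 to 75.1 in SWR/J (median 45.1). Its part in the strain values was not tested.

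The genes whose pattern across the 25 samples was most like the mean standardised level of the 7 were sought among 14203 genes whose mean log2 CPM was 1 or more. By Pearson's r they were Cxcr5 (0.975), Bank1 (0.974), Tnfrsf13c (0.973), Fcrl1 (0.965), Fcer2a (0.963), Hvcn1 (0.938), H2-Ob (0.936), H2-DMb2 (0.934), B3gnt5 (0.930) and Il9r (0.930). Of these 10, 4 were among the first 10 within the LCM samples and 5 within the whole lung samples. Bank1, a scaffold protein of B cell receptor signalling, ranked first within LCM, and H2-Ob, a chain of the class II antigen loading regulator, ranked first within whole lung.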

How the data were processed

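RNA from 40 samples was made into TruSeq libraries by the authors, who trimmed the reads with Trimmomatic, aligned them to mm9 with STAR and counted them with RSEM. The deposited values are expected counts per Ensembl gene, not normalized. All 37310 identifiers matched a mouse symbol. The strand of the reads is not given in the sources used here. Expected counts were rounded for testing. The 25 passed samples were fitted in 1 model (normal, mild, high-grade, sample type, strain, scaled median TIN) with edgeR 4.0.16 (TMM, robust quasi-likelihood), in R 4.3.3, on the 15630 genes with an interquartile range above 0 and summed log2 CPM above 1, with Benjamini-Hochberg adjustment over all of them and a threshold of 0.05. DESeq2 1.42.0, other normalizations, filters, covariates and sample sets, and each sample left out, were alternatives. The edgeR fit was also run on counts simulated from its own estimates of spread, with independent samples. Such counts do not represent samples that share an animal, and the outcome is not reported here. Replicate numbers follow accession order and only name samples. The members and gene lists were chosen with earlier results of these data known. Named genes were the 7 members, listed genes past the threshold (at most 6 a list and comparison), Cxcl13, Cxcr5, Tnfrsf13c, Ighm and Igkc, and the 10 most alike genes. Some listed genes, among them Igha, were not analysed here, and some are not reported here. Where Ebf1 had 2 identifiers, the one with more counts was used.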

Additional observations from a re-analysis of the deposited data

Results flagged for a closer look

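One library outside the comparisons stood above every normal sample for Ms4a1, Cd79a, Cd79b and Pax5, but not for the other members. It was severe dysplasia replicate 1, an LCM sample of SWR/J without the passed label, with 858375 expected counts. Scaled together with all 40 samples, it stood at 9.04 log2 CPM for Ms4a1, beside 8.67 in the highest normal sample. For Cd79a it stood at 9.52 (highest normal 8.96), for Cd79b at 10.5 (9.48) and for Pax5 at 6.31 (5.16), from 339, 472, 933 and 51 expected counts. Cd22, Cr2 and Blk were at 6.96, 6.73 and 6.42 there, below the highest normal sample. In the 15 samples without the passed label, the median expected count of each gene was between 0 and 4. Among 21 sets of 5 to 9 samples of 1 grade, no sample stood apart from the rest by Dixon's test at 95%. Chance would flag about 1 of 20 independent sets, but these sets were not independent because the genes were correlated. Each set also pooled LCM with whole lung samples, so its spread held the sample type difference and a single unusual sample could be missed.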

How the results depend on the processing

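No paired analysis was possible because the replicate numbers were given in accession order and the samples are not tied to animals. The samples chosen by Rag1, the A/J samples alone, and normal with moderate to severe dysplasia samples were alternatives chosen after seeing the data. Causes of these changes were not tested.

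Of the 7 genes, the 6 called lower in LCM became 4 without TIN and 4 with normal and moderate to severe samples, Ms4a1 and Cr2 losing their calls in both (edgeR adjusted p = 0.0613 and 0.0670, then 0.0864 and 0.0702). They became 2 with no gene filter, 3 within SWR/J, and 0 with all 40 samples, within A/J or without the 9 samples at or above 10 CPM of Rag1, and ran from 2 to 7 with each sample left out. In A/J alone the LCM differences were 2.70 (Ms4a1), 2.24 (Cd79a), 1.40 (Cd79b), 1.23 (Pax5), 1.62 (Cd22), 4.60 (Cr2) and 3.09 (Blk). The 1 gene called in mild dysplasia became 0 with no gene filter, without TIN, without strain and sample type, by the descriptions, within LCM, whole lung or SWR/J, with all 40 samples and without the samples with Rag1, and was 0 to 1 with each sample left out. The 0 called between strains became 2 by DESeq2.

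The high-grade differences changed sign for Ms4a1 without TIN (-1.16), without strain and sample type (-1.65), in LCM (-0.28), in SWR/J (-0.70), without Rag1 samples (-1.03) and with normal and moderate to severe samples (-0.28). In the same order those of Cd79a were -0.65, -0.98, -0.62, -0.69, -0.54 and -0.058. Cd22 gave -0.39, -0.55, -0.17, -0.24 and -0.056 in the first 5 of these, and Cr2 gave -0.72 without TIN, -1.03 without strain and sample type, -0.69 in SWR/J and -0.52 without Rag1 samples. Pax5 gave -0.19 without strain and sample type. Cd79b gave 0.23 in whole lung and 0.58 with all 40 samples, and Blk 0.076 in whole lung and 0.26 in SWR/J. With 1 sample left out the ranges were -0.85 to 0.37 (Ms4a1), -0.64 to 0.43 (Cd79a), -0.71 to 0.13 (Cd79b), -0.28 to 0.58 (Cd22) and -0.74 to 0.44 (Cr2). In mild dysplasia, Cr2 gave 0.085 without TIN and 0.86 in LCM, and Pax5 0.00089 without strain and sample type.

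Counts over all genes moved too. For mild dysplasia the 1945 called became 3653 by DESeq2, 1 with all 40 samples, 0 without strain and sample type, by the descriptions, within LCM or whole lung or without Rag1 samples, and 643 to 3118 with each sample left out. For high-grade, the 3 became 95 by DESeq2, 1 with no filter, 5 without TIN, 1 without strain and sample type, 5 with all 40 samples, 0 within LCM, whole lung or SWR/J, without Rag1 samples or with normal and moderate to severe samples, and 0 to 6 with each sample left out. For LCM, the 2279 became 577 in SWR/J, 1346 with all 40 samples, 379 without Rag1 samples, 0 in A/J, 979 with normal and moderate to severe samples, and 1385 to 2555 with each sample left out. For strain, the 155 became 961 by DESeq2, 254 with no filter, 2493 without TIN, 11 within LCM, 14 within whole lung, 14 without Rag1 samples, 336 with normal and moderate to severe samples, and 97 to 402 with each sample left out. The interaction's 0 became 4 by DESeq2.

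With prior counts of 0.25 in place of 2, each difference of medians between LCM and whole lung kept its sign. Depth limits the low end: Pax5 and Cr2 had 0 counts in some samples, so their lowest levels are set by the prior count.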
